A study of Mus musculus with 4 samples.

Results

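The MPP2 gate is a set of mouse marrow progenitors defined by 3 surface proteins, CD150 and CD48 present and CD135 (FLT3) absent. Cells were chosen by antibody-derived tag counts alone: for each cell barcode, ln(1 + count) was centred on the mean over the 6 antibodies used (the centred value is called clr), and members had CD150 clr above -0.28, CD48 clr above 1.73 and CD135 clr of at most -0.94. Barcodes were kept when they had 1000 genes or more and no more than 10% mitochondrial counts. Of the 18168 kept in 3 libraries, 615 were members (22916 barcodes passed the same filter in all 4 libraries of the study). The gate held 310 of 7274 cells of the control library (4.26%, 95% Clopper-Pearson interval 3.81 to 4.75), 167 of 6101 cells of the library labelled Mll3 deleted (2.74%, 2.34 to 3.18) and 138 of 4793 cells of the library labelled Mll4 deleted (2.88%, 2.42 to 3.39). These shares follow from the antibody thresholds and describe the gate, with no test.

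The study compared donor-derived blood stem and progenitor cells lacking the histone methyltransferases MLL3 (gene Kmt2c), MLL4 (gene Kmt2d) or both with control cells. All libraries were made from CD45.2+ Lineage- Sca1+ Kit+ (LSK) bone marrow cells taken 10 weeks after transplantation, stained with barcoded antibodies and run on a 10x 3' single-cell kit. Each genotype was 1 library. The deletion driver, strain, sex and number of mice per library are not given in the sources used here, so p-values across libraries measure only the spread between these 3 libraries, which also differ in genotype. Sets of 3 values follow the order control, Mll3 deleted, Mll4 deleted.

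MPP2 cells are multipotent progenitors that lie close to the stem cell in the usual scheme of mouse haematopoiesis and are known for their bias towards megakaryocytes and red cells. CD150 is shared with the haematopoietic stem cell (HSC) gate (CD150+CD48-CD135-) and CD48 with the MPP3 gate (CD150-CD48+CD135-), a myeloid-biased multipotent progenitor. The markers used to check the gate were Pf4, which encodes platelet factor 4 of megakaryocyte granules, Itga2b, which encodes the platelet integrin CD41, and Gata1, the transcription factor that drives both megakaryocyte and erythroid maturation.

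Promoters are shown for the markers that passed a test between gates. Both run from 250 bases before to 50 bases after the RefSeq start (GRCm38.p6, 5′ to 3′ along the gene), with capitals marking motif matches. The letters searched, on both strands, were AGATAA for GATA factors. For ETS factors they were GGAAGT, which reads ACTTCC when it lies on the other strand.

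Pf4, chr5:90772185-90772484, plus strand: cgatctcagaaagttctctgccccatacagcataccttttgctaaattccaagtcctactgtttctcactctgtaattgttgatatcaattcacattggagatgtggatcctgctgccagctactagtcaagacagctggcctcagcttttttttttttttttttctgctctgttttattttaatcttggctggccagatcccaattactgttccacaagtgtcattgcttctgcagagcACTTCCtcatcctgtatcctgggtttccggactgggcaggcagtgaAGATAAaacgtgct

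Itga2b, chr11:102469834-102470133, minus strand: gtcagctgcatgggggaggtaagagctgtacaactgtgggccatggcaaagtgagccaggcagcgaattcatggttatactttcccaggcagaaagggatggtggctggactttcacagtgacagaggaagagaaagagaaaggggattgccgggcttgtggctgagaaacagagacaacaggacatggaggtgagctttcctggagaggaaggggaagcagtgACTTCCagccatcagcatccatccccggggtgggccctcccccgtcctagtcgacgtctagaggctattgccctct

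The Pf4 window held the GATA letters 36 bases after the start and the ETS letters on the opposite strand 10 bases before it, and the Itga2b window held the ETS letters 26 bases before its start. The Gata1 window (chrX:7967861-7968160, minus strand) held neither. Of 32851 RefSeq promoters of that length, 11.2% held the GATA letters and 23.8% the ETS letters, so the matches describe the letters only. In GENCODE coordinates on mm10, Pf4 (ENSMUSG00000029373) spans chromosome 5, 90772435 to 90773383, Itga2b (ENSMUSG00000034664) chromosome 11, 102453297 to 102470122, and Gata1 (ENSMUSG00000031162) chromosome X, 7959260 to 7978071. All are protein-coding.

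The genotype labels were checked first. Kmt2c stood at 64.6, 32.0 and 67.3 CPM (the usual depth-scaled count, a gene's unique molecular identifiers, or UMIs, over all UMIs of the gate's cells), a log2 ratio of -1.01 (95% exact interval -1.30 to -0.74) in the library labelled Mll3 deleted. Kmt2d stood at 24.3, 23.8 and 22.9 CPM, a log2 ratio of -0.09 (-0.44 to 0.25) in the library labelled Mll4 deleted. A 3' count can miss a deletion further upstream, so Kmt2d does not check that label. Median depth per MPP2 cell was 20856.5, 22884 and 32600.5 UMIs, against 11816 to 24723 in the HSC gate and 17428 to 20959 in the MPP3 gate. Pairs of the 4 libraries shared 7 to 14 barcodes, at most 0.25% of the smaller library.

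Cells with the highest doublet scores (Scrublet scores, taking 0.8% of a library per 1000 cells kept) made up 16.5%, 23.4% and 20.3% of the MPP2 gate, against 1.43% to 5.44% of the HSC gate and 4.16% to 6.35% of the MPP3 gate. The gate was also mixed. After each cell was thinned to 3000 UMIs, 15 of 310 (4.84%), 30 of 166 (18.1%) and 39 of 138 cells (28.3%) carried RNA of another lineage by a rule on marker UMIs set after the data were seen. The other gates differed on this count as well, with 0.298%, 0.113% and 4.02% in the HSC gate and 10.4%, 29.8% and 74.6% in the MPP3 gate. For some results that rest on such cells, values without them are also given.

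Cells near the thresholds varied in Pf4. Within 0.2 clr units of the CD48 threshold, Pf4 was at 804, 12.6 and 1465 CPM just inside (45, 39 and 15 cells) and at 189, 92.6 and 202 CPM just outside (72, 48 and 17 cells). At the CD150 threshold it was at 105, 12.5 and 794 CPM just inside and at 230.1, 105 and 15.6 CPM just outside. The direction across each threshold differed between libraries. Gating on antibody counts that were not centred kept 71.0%, 67.7% and 72.5% of the members. Few cells lay near the CD135 threshold, 8, 6 and 2 just inside and 0, 0 and 1 just outside.

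Pf4 RNA in the MPP2 gate stood at 514, 96.3 and 444 CPM. In the HSC gate it stood at 118, 44.5 and 80.6 CPM, and in the MPP3 gate at 13.5, 6.22 and 8.30 CPM. Pf4 was highest in the MPP2 gate in each of the 3 libraries, and the MPP2 values did not overlap those of the MPP3 gate, while the Mll3 deleted MPP2 value lay below the control HSC value. Relative to the HSC gate Pf4 was higher by 1.92 on the log2 scale (SE 0.30, edgeR quasi-likelihood adjusted p = 0.0167), and relative to the MPP3 gate by 4.99 (SE 0.34, adjusted p = 0.00226). In sums over cells, fewer cells with a transcript and less transcript per cell cannot be told apart. Both Pf4 calls were lost without the control library, with log2 1.83 (adjusted p = 0.19) against HSC and 4.88 (adjusted p = 0.0601) against MPP3.

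Itga2b stood at 82.5, 41.5 and 62.9 CPM in the MPP2 gate, 31.0, 25.9 and 26.5 in the HSC gate and 20.1, 8.13 and 21.9 in the MPP3 gate. The MPP2 range overlapped neither of the others. The log2 difference was 1.03 (SE 0.26, edgeR adjusted p = 0.0487) against HSC and 1.84 (SE 0.26, adjusted p = 0.0281) against MPP3. The call against HSC was lost without the control library (adjusted p = 0.337) or the Mll3 deleted library (0.119), with the thresholds moved by 0.2 (0.0602) and with a stricter cell filter (0.0847), and the call against MPP3 was lost without the control (0.23) or the Mll3 deleted library (0.0766).

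Gata1 stood at 29.7, 15.7 and 23.2 CPM in the MPP2 gate, 9.08, 6.31 and 4.84 in the HSC gate and 2.89, 3.64 and 1.67 in the MPP3 gate, again with no overlap. It missed the low-count filter of the gate test (at least 20 CPM in at least 3 of the 9 sums). In the edgeR fit without that filter its log2 difference was 1.80 (adjusted p = 0.00513) against HSC and 2.998 (adjusted p = 0.000514) against MPP3.

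**Figure D1:**
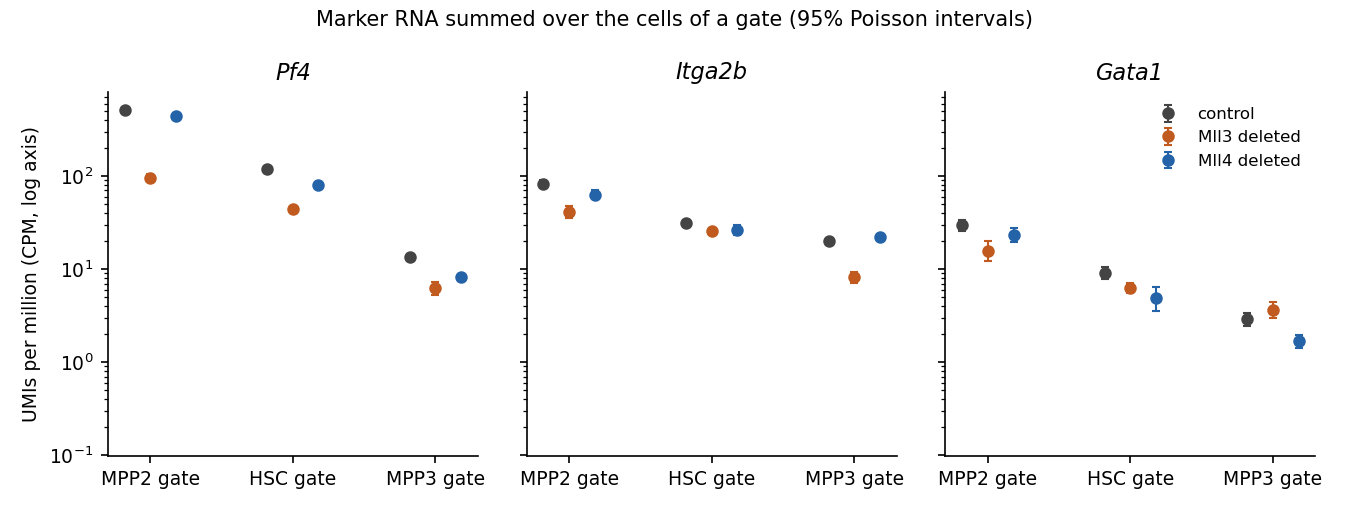
Level of Pf4, Itga2b and Gata1 (CPM, log axis) summed over the cells of the MPP2, HSC and MPP3 gates, 1 point per library with its 95% Poisson interval (counting error only). In each library and for each gene the MPP2 point is the highest of the 3 gates, from 96.3 to 514 CPM for Pf4.

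The share of gate cells with a marker UMI depended on depth. After thinning to 3000 UMIs per cell, a Pf4 UMI was seen in 57 of 310 cells (18.4%, 95% Clopper-Pearson interval 14.2 to 23.2), 12 of 166 (7.23%, 3.79 to 12.3) and 21 of 138 (15.2%, 9.67 to 22.3). Before thinning, at unequal depth, the shares were 49.0%, 16.8% and 44.9% for Pf4 and 69.0%, 42.5% and 55.1% for Itga2b. The thinned shares were 12.6%, 5.41% and 7.76% in the HSC gate and 2.54%, 1.10% and 2.05% in the MPP3 gate. Background from free RNA was read in the 5% of each library's cells richest in granulocyte-monocyte genes, which should lack Pf4. It was 2.50%, 1.32% and 1.25% there, at median depths of 19875.5, 18038 and 39654.5 UMIs. The MPP2 share was above that background in each library, and the intervals of the MPP2 and HSC shares overlapped in each library, in the control only at their ends (HSC 11.0 to 14.2).

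Any of Pf4, Itga2b and Gata1 was seen in 37.7%, 18.1% and 34.8% of thinned MPP2 cells, against 19.7%, 11.2% and 10.6% of HSC gate cells and 8.50%, 3.74% and 12.95% of MPP3 gate cells. The background for this measure, in the same cells rich in granulocyte-monocyte genes, was 8.61%, 3.63% and 1.67%. At least 2 of them were seen together in 10% (31 cells), 1.81% (3 cells) and 10.9% (15 cells) of MPP2 cells, against 0.556%, 0% and 0% of those background cells. The counts of 0 were out of 303 and 240 cells, which by the exact interval allows up to 1.21% and 1.53%. Most cells of the gate therefore showed none of the 3 markers at this depth, which does not show that they lack them. Pf4 UMIs were concentrated: the top 10% of cells held 92.7%, 97.4% and 96.0% of them, and a single cell held 18.7%, 34.2% and 40.5%. Itga2b was more evenly spread, with 39.2%, 57.4% and 53.7% in the top 10% of cells.

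The MPP2 gate was next compared with the HSC gate, which shares CD150 and lacks CD48. In the MPP2 gate stem cell genes were lower, and mitotic, granulocyte-monocyte and lymphoid genes were higher, with the counts for each list given in turn. UMIs were summed per library and gate and tested with edgeR across 6507 genes, with library as a block, and the MPP2 sums also enter the MPP3 comparison. Of all genes tested, 12% passed an adjusted p of 0.05, with 361 higher (5.55%) and 421 lower (6.47%) in the MPP2 gate. Scaling by library totals in place of TMM gave 450 higher and 236 lower.

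Stem cell genes were lower. Of 14 HSC list genes tested (20 in the list), 9 fell and none rose, with a median log2 difference of -1.21 against -0.01 over all genes. Mllt3, a chromatin reader that sustains stem cell self-renewal, stood at 43.9, 48.6 and 76.3 CPM in the MPP2 gate and 131, 132 and 185 in the HSC gate, with no overlap (log2 -1.46, SE 0.22, edgeR adjusted p = 0.0151). Procr, which encodes the stem cell surface protein CD201, stood at 11.7, 17.3 and 14.0 CPM against 59.6, 44.8 and 38.7 (log2 -1.77, SE 0.35, adjusted p = 0.0273).

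Cdkn1c (log2 -1.31), the cell cycle inhibitor p57 of quiescent stem cells, Tgm2 (-1.30), Clec1a (-1.68), Pdzk1ip1 (-1.22), Ifitm1 (-1.20), Ly6a (-1.06), which encodes Sca1, and Ctsf (-1.36) also fell. Hlf and Mecom, transcription factors required by stem cells, had log2 differences of -1.11 and -1.10 and did not pass (edgeR adjusted p = 0.0977 and 0.0767). Outside the list, Socs2, a brake on cytokine signalling, had the lowest value by the naming rule (20.6, 34.3 and 30.2 CPM against 71.5, 77.3 and 83.5, log2 -1.54, SE 0.21, adjusted p = 0.0129). Myl10 (-1.29), Iigp1 (-1.28), Hacd4 (-1.22) and Ltb (-1.14) also fell.

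Mitotic genes were higher as a group. All 16 G2M list genes rose against the HSC gate, with a median of 0.75. Ube2c, the ubiquitin-conjugating enzyme of the anaphase-promoting complex, stood at 245, 362 and 182 CPM against 112, 161 and 96.8 (log2 1.02, SE 0.08, edgeR adjusted p = 0.00261). Mki67, the Ki-67 proliferation antigen, stood at 630.2, 557 and 569 CPM against 283, 344 and 332 (log2 0.83, SE 0.11, adjusted p = 0.0104), with no overlap. Among 16 S phase genes 3 rose (Mcm5, Rrm2 and Rfc2) and none fell, with a median of 0.29. CD201 protein, which the gate did not use, had a median clr of -1.85, -2.24 and -1.48 in the MPP2 gate and -0.66, -1.13 and -0.64 in the HSC gate, given as a description since its centring includes the gating antibodies.

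Genes of the granulocyte-monocyte list were higher. Of 13 tested (18 in the list), 9 rose and none fell, with a median log2 difference of 3.71. Elane, neutrophil elastase, stood at 146, 429.8 and 927 CPM against 2.42, 7.80 and 50.4 (log2 5.21, SE 0.35, edgeR adjusted p = 0.00228), and Mpo, myeloperoxidase, at 128, 517 and 1892 CPM against 4.28, 10.8 and 111 (log2 4.81, SE 0.31, adjusted p = 0.00228). The top 10% of MPP2 gate cells held 95.6%, 97.0% and 87.9% of the Mpo UMIs. Ly6c2, Ctsg, F13a1, Ms4a3, Irf8, Nkg7 and Cebpa also rose. Lymphoid genes rose too, with 4 of 6 tested (16 in the list): Dntt, the terminal transferase of early lymphocytes, Il7r, Satb1 and Flt3. Dntt stood at 23.9, 174 and 2.77 CPM against 1.81, 3.85 and 0.645 (log2 4.56, SE 0.62, adjusted p = 0.0122). Its MPP2 values rest on 165, 766 and 15 UMIs in 16, 31 and 9 cells.

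The rule for cells of other lineages counted UMIs of Mpo, Elane and Ctsg, so leaving those cells out lowers these genes by construction. With the cells of other lineages left out of all 3 gates, 2 of 9 granulocyte-monocyte genes tested rose (Irf8 and Nkg7), the list median was 0.29, Mpo was at log2 1.12 (edgeR adjusted p = 0.267) and Elane at -0.38 (0.0648). Under that setting 14.2% of all 6494 genes tested were higher and 15.1% lower, all 13 HSC genes tested fell, all 16 G2M genes rose and 4 of 5 lymphoid genes rose. Irf8, an interferon regulatory factor of monocyte and dendritic precursors, stayed called at log2 3.17 (edgeR adjusted p = 0.00108).

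Few megakaryocyte and erythroid genes passed the test against the HSC gate. Of 15 megakaryocyte genes tested (30 in the list), 3 rose (Pf4, Itga2b and Plek) and none fell, and the list median was -0.09. Plek, the platelet kinase substrate pleckstrin, stood at 62.5, 30.7 and 124 CPM against 16.2, 14.1 and 35.9 (log2 1.57, SE 0.18, edgeR adjusted p = 0.0079). Of 13 erythroid genes tested, Car1, a carbonic anhydrase of red cell precursors, rose, at 67.4, 137 and 15.9 CPM against 0.749, 6.22 and 0.43 (log2 4.80, SE 0.71, adjusted p = 0.0151). A single cell held 48.4%, 62.6% and 40.7% of the Car1 UMIs of the gate. In the fit without the low-count filter, where 3.18% of all genes were higher, 5 of 29 megakaryocyte genes were higher (median 0.29) and 5 of 20 erythroid genes (median 0.49), with none lower in either list. The genes called higher there that had missed the filter were Gata1 and F2rl2 (log2 1.72) of the first list and Klf1, the erythroid master regulator (log2 2.005, adjusted p = 0.00563), Aqp1 (1.68), Ermap (3.95) and Sphk1 (4.79) of the second.

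**Figure D2:**
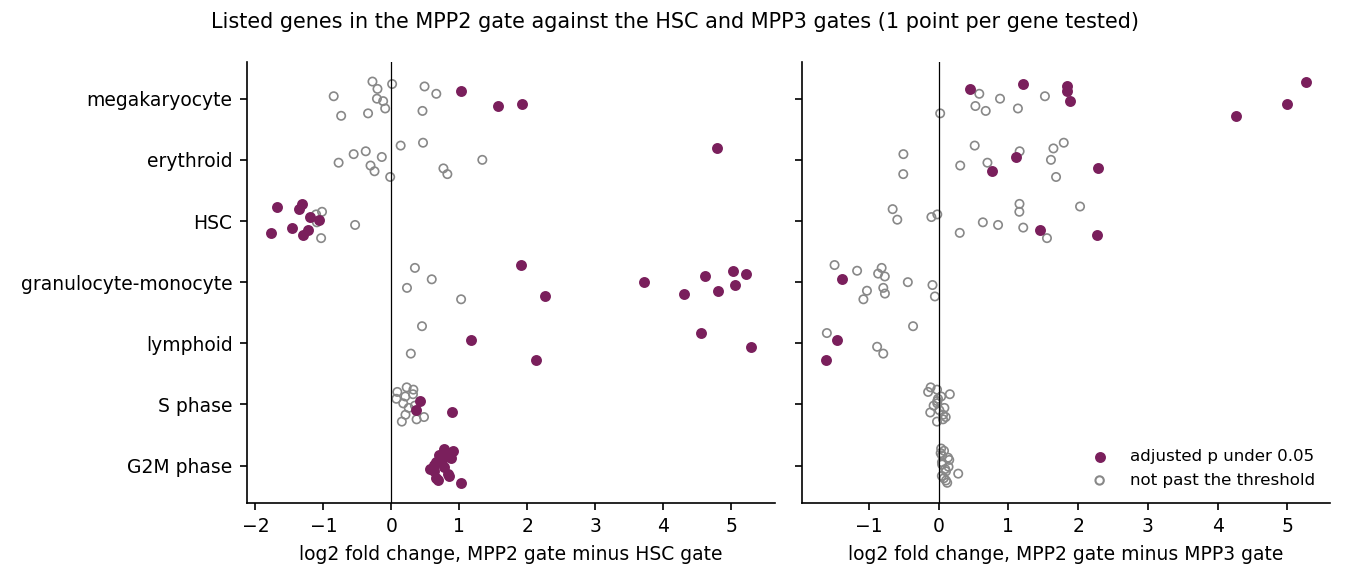
Log2 fold change of each tested list gene in the MPP2 gate against the HSC gate (left) and the MPP3 gate (right), 1 point per gene, filled where the edgeR adjusted p was under 0.05. Against HSC all 16 G2M genes are filled and to the right of 0 and the 9 filled HSC list genes lie to the left, and against MPP3 the 8 filled megakaryocyte genes lie to the right and no cell cycle gene is filled.

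The number of calls against the HSC gate changed with the libraries used. Without the control library 10 genes passed and without the Mll3 deleted library 14, with no HSC list or G2M gene among them (list medians -1.07 and -1.15, and 0.67 and 0.75), and without the Mll4 deleted library 1894 passed.

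The comparison with the MPP3 gate, which shares CD48 and lacks CD150, gave fewer calls. Of the 6507 genes, 1.52% passed, 63 higher (0.968%) and 36 lower (0.553%) in the MPP2 gate, and library-total scaling gave 90 and 30. Of 15 megakaryocyte genes tested, 8 rose, none fell and all had a positive log2 difference, with a median of 1.22 against -0.01 over all genes. No cell cycle gene differed by the test, with medians of 0.09 (G2M) and -0.02 (S phase). With library-total scaling the S phase median was 0.07.

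Cavin2, a caveola coat protein abundant in platelets, stood at 33.2, 38.8 and 35.6 CPM in the MPP2 gate and 0.73, 1.84 and 0.514 in the MPP3 gate, with no overlap (log2 5.26, SE 0.28, edgeR adjusted p = 0.000805). It was as high in the HSC gate, at 36.6, 59.2 and 35.2 CPM. Vwf, which encodes von Willebrand factor of platelets and a subset of stem cells, stood at 14.5, 15.2 and 31.5 CPM against 1.33, 0.862 and 0.652 in the MPP3 gate (log2 4.27, SE 0.48, adjusted p = 0.0145) and at 18.2, 31.4 and 51.0 CPM in the HSC gate. Both genes thus separated the MPP2 gate from MPP3 and not, by the test, from HSC (adjusted p = 0.44 and 0.248).

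F2r, the thrombin receptor, stood at 63.8, 41.8 and 53.1 CPM against 20.9, 12.5 and 9.91 (log2 1.84, SE 0.15, edgeR adjusted p = 0.00466). Cd9 (log2 1.22), a tetraspanin of platelets, and Fli1 (0.45), an ETS factor of megakaryocytes, also rose. The platelet receptor genes Gp1bb, Gp5, Gp9 and Treml1 missed the filter. In the fit without it their log2 differences against MPP3 were 4.90, 3.59, 2.48 and 3.91 (adjusted p = 0.000828, 0.000892, 0.000892 and 0.0016), at levels in the MPP2 gate of 5.65, 3.41 and 4.42 CPM for Gp1bb and 43.2, 15.9 and 12.7 CPM for Gp9. In that fit 19 of 29 megakaryocyte genes were higher than in MPP3, against 0.93% of all genes. Gp6 had no UMI in any of the 3 gates.

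Of 13 erythroid genes, 3 rose against MPP3. Gata2, a stem cell and early megakaryocyte-erythroid transcription factor, stood at 156, 126 and 157 CPM against 62.5, 55.7 and 73.2 (log2 1.12, SE 0.12, edgeR adjusted p = 0.0108). Slc14a1, a urea transporter of red cells, had a log2 difference of 2.29 (adjusted p = 0.0137) and Tal1 one of 0.76 (0.0476). From the HSC list Tgm2 (2.27) and Pdzk1ip1 (1.45) rose and none fell, with a median of 1.004 over 14 genes.

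Nupr1, Plxnc1 and Tbxas1 were also among the genes highest against MPP3 by the naming rule. Nupr1, a stress-responsive chromatin protein, stood at 54.8, 65.4 and 61.0 CPM against 10.2, 7.83 and 11.1 (log2 2.55, SE 0.13, edgeR adjusted p = 0.000805), and at 121, 116 and 149 CPM in the HSC gate. Plxnc1, a semaphorin receptor, had a log2 difference of 1.82 and Tbxas1, thromboxane synthase, of 1.30. The Cavin2, Nupr1 and Plxnc1 calls held under each of 13 alternatives, and the Vwf call under each of the 10 in which it was tested.

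Lower in the MPP2 gate than in MPP3 were neutrophil granule genes and lymphoid genes. Ngp (log2 -6.54), Camp (-6.38) and S100a8 (-5.44), products of maturing neutrophils, fell, 3 of 5 neutrophil granule genes tested (8 in the list). S100a8 stood at 6.81, 1.36 and 71.7 CPM against 216, 123 and 1898 (edgeR adjusted p = 0.0456), with no overlap. Flt3, whose protein CD135 was gated against in both populations, stood at 19.9985, 27.0 and 13.5 CPM against 68.6, 65.3 and 26.9 (log2 -1.45, SE 0.20, adjusted p = 0.0259), and Satb1, a chromatin organiser of lymphoid cells, also fell (-1.61). Ccl9 (-1.67) and Tespa1 (-1.26) also fell. In the granulocyte-monocyte list 1 of 13 genes fell, Hk3 (-1.39), none rose, and the median was -0.82.

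Calls against MPP3 numbered 12 without the control library, 9 without the Mll3 deleted library and 326 without the Mll4 deleted library, with 2, 2 and 11 of 14 megakaryocyte genes higher. With other-lineage cells left out of all 3 gates 630 genes passed (9.7%, with 4.03% higher), and 14 of 16 megakaryocyte genes rose while 1 fell.

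Higher than both gates by the naming rule were Pf4, Itga2b, Icam4 and Psd3. Icam4, a red cell adhesion molecule, stood at 46.5, 37.0 and 20.8 CPM in the MPP2 gate, 23.8, 27.0 and 11.8 in the HSC gate and 13.8, 14.96 and 5.48 in the MPP3 gate. The order of the gates was the same in each library, with log2 0.70 against HSC (SE 0.13, edgeR adjusted p = 0.0247) and 1.58 against MPP3 (SE 0.13, 0.00466). Psd3, an exchange factor for a small GTPase of membrane traffic, stood at 28.1, 29.3 and 32.1 CPM against 21.2, 23.0 and 19.3 and against 15.3, 13.6 and 13.7, with log2 0.44 (adjusted p = 0.0497) and 0.98 (0.0145). Against HSC the Icam4 call was lost in 3 and the Psd3 call in 6 of 13 alternatives.

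The mRNAs of the gating proteins CD48 and CD150 followed the gate. Cd48 stood at 85.9, 100.1 and 77.1 CPM in the MPP2 gate against 7.93, 4.70 and 4.41 in the HSC gate (log2 3.91, SE 0.20, edgeR adjusted p = 0.000974). Slamf1, which encodes CD150, stood at 18.3, 19.1 and 28.9 CPM against 1.86, 1.39 and 1.54 in the MPP3 gate (log2 3.68, SE 0.18, adjusted p = 0.000805). Neither pair of groups overlapped, and both calls follow the proteins that the rule used. Flt3, which encodes the gating protein CD135, differed between gates that were all CD135-. It was higher than in the HSC gate (log2 1.16, adjusted p = 0.024) and lower than in the MPP3 gate (-1.45, adjusted p = 0.0259). Of the stem and progenitor antigens that entered the rule only through the centring, the mRNA of Cd34 was higher than in the HSC gate (log2 0.58, adjusted p = 0.0207) and lower than in the MPP3 gate (-1.02, adjusted p = 0.0094), and Kit was lower than in the HSC gate (-0.48, adjusted p = 0.0372).

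Within the gate, cells with a Pf4 UMI after thinning (57, 12 and 21 cells) were set beside those without (253, 154 and 117 cells). This split uses an RNA of the same cells and is a description. The megakaryocyte list without Pf4 summed to 3009, 3796 and 3464 CPM in cells with Pf4 and to 1239, 963 and 978 CPM in cells without. The HSC list was lower in cells with Pf4 in each library, at 772, 640 and 703 against 1046, 956 and 1236 CPM. The lymphoid list was also lower, at 65.4, 80.4 and 45.8 against 137, 886 and 126 CPM. The cells with B-progenitor genes counted below (1, 12 and 1) all lay among those without Pf4, and values without them are not given here.

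Single genes showed the same split. Cavin2 was at 118, 245 and 139 CPM in cells with Pf4 and 13.2, 23.9 and 16.4 in cells without. Rap1b, a small GTPase of platelet integrin activation, was at 551, 992 and 725 against 148, 159 and 130 CPM, and Vwf at 49.5, 90.5 and 76.4 against 6.27, 9.75 and 23.2 CPM. Hlf was lower in cells with Pf4, at 78.4, 67.0 and 82.3 against 165, 178 and 209 CPM. Car1 was at 2.28, 0 and 0 CPM in cells with Pf4 and 82.7, 147 and 18.8 CPM in cells without. It was seen in only 20, 6 and 6 cells of the gate, and 1 cell held 48.4%, 62.6% and 40.7% of its UMIs. These are too few cells to give Car1 a direction.

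Surface CD150 was higher in cells with Pf4, with a median clr of 0.37, 0.82 and 0.55 against 0.12, 0.26 and 0.23. High doublet scores were found in 10.5%, 8.33% and 9.52% of them, against 17.8%, 24.7% and 22.2% of cells without Pf4. Of the 57, 12 and 21 cells with Pf4, 51, 11 and 19 were left once the highest scores were removed. The lower shares thus rest on few high-scoring cells, and the difference was not tested. Median depth was 20607, 25659.5 and 32623 UMIs with Pf4 and 20858, 22838.5 and 32487 without. The G2M list had no common direction, at 2644, 2610 and 3183 CPM with Pf4 against 3062, 3301 and 2639 without, and the erythroid and granulocyte-monocyte lists also differed in direction between libraries.

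**Figure D3:**
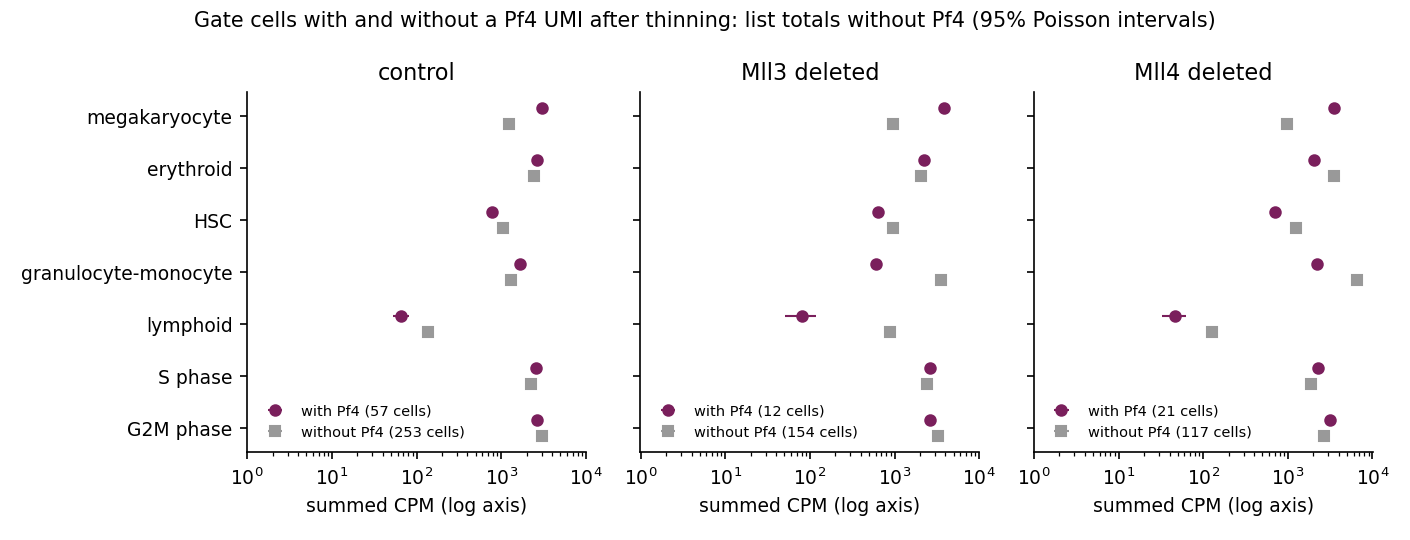
Summed CPM of each gene list (log axis, Pf4 left out) in MPP2 gate cells with and without a Pf4 UMI after thinning, 1 panel per library, with 95% Poisson intervals (counting error only). The megakaryocyte sum is higher in cells with Pf4 in each panel (3009, 3796 and 3464 CPM) and the HSC and lymphoid sums are lower.

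Cells carrying RNA of other lineages were counted by thinned UMIs of marker sets. Cells with at least 3 UMIs of Mpo, Elane and Ctsg numbered 10, 13 and 22, and cells with at least 2 UMIs of the B-progenitor genes Cd79a, Vpreb1, Vpreb3, Igll1 and Ebf1 numbered 1, 12 and 1. Macrophage-gene cells numbered 1, 4 and 12 and mast-gene cells 1, 0 and 6. T cell genes marked 1, 2 and 0 cells, immunoglobulin genes at 30 UMIs or more 1, 0 and 1, and haemoglobin genes at 20 UMIs or more 0, 0 and 3. Pf4 was also seen in 2, 1 and 6 of the cells with any of these.

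Some sums rested on single cells. In the control library 1 cell held 98.9% of the 10919 Igkc UMIs of the gate, and in the Mll4 deleted library 1 cell held 81.2% of 4930, with Igkc in 137 of 138 cells. In that library Mpo was seen in 131 of 138 cells, against 67 of 310 and 52 of 167. These counts of cells were taken before thinning, at unequal depth. Over all kept cells Mpo was at 174, 196 and 3781 CPM, and the part of free RNA in these counts was not tested. In the Mll4 deleted library 1 cell of the gate held 71.0% of 5600 Hba-a1 UMIs, against 12 and 1 Hba-a1 UMIs in the gates of the other libraries. Reads of this gene can be split with near-identical copies.

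**Figure D4:**
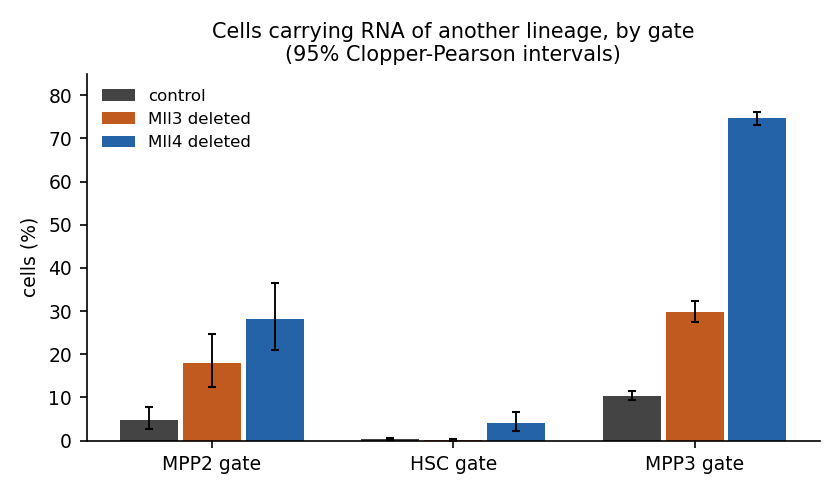
Share of thinned cells that carry RNA of another lineage (percent, bars from 0 with 95% Clopper-Pearson intervals) in the MPP2, HSC and MPP3 gates of each library. In each library the MPP2 bar (4.84%, 18.1% and 28.3%) lies between the HSC and MPP3 bars.

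The last comparison set the MPP2 gates of the Mll3 deleted and Mll4 deleted libraries beside that of the control. With 1 library per genotype there is no test: ratios compare these libraries, exact 95% intervals cover counting error only, and the count of genes past 2-fold takes only those reaching 50 CPM in the control or the deleted library. In the library labelled Mll3 deleted 1.96% of 3369 genes were past 2-fold (38 higher, 1.13%, and 28 lower, 0.831%). In the library labelled Mll4 deleted 5.33% of 3337 were (138 higher, 4.14%, and 40 lower, 1.2%).

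Megakaryocyte genes were mostly lower in the Mll3 deleted library. Of 17 with a mean of at least 20 CPM in the list of 30, 16 had a ratio below 1, and 4 were past 2-fold lower and none past 2-fold higher. The median log2 ratio was -0.61, against 0.10 over all 6074 genes at that level, of which 3926 had a ratio above 1. Of those 6074 genes, 40 were past 2-fold lower and 53 past 2-fold higher. Pf4 was at -2.41 (interval -2.56 to -2.27), Gp5 at -1.49 (-1.97 to -1.06), Gp9 at -1.43 (-1.84 to -1.06) and Plek at -1.02 (-1.32 to -0.75). Itga2b was at -0.99 (-1.24 to -0.75) and Gata1 at -0.92 (-1.34 to -0.52). For Pf4 the shift was not confined to this gate, at 118 and 44.5 CPM in the HSC gates of the control and Mll3 deleted libraries. In their MPP3 gates Pf4 stood at 13.5 and 6.22 CPM, while Gata1 stood at 2.89 and 3.64. Over all kept cells of the control and Mll3 deleted libraries, Pf4 stood at 72.5 and 29.1 CPM and Itga2b at 24.3 and 17.5. Gata1 stood at 5.31 and 4.81 there, with overlapping intervals. These sums include the MPP2 gate, and the HSC gate held 23.1% and 43.7% of kept cells. Vwf ran the other way over all kept cells, at 6.04 and 15.9 CPM.

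Other genes of the list had intervals that included 0 in the Mll3 deleted library, namely Cavin2 at 0.23 (-0.07 to 0.52), Vwf at 0.07 (-0.40 to 0.53) and Rap1b at -0.06 (-0.18 to 0.06). With a minimum of 100 CPM in place of 20 the list median was -0.18. Left without other-lineage cells, Pf4 was at -2.07 and the list median at -0.46.

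In the library labelled Mll4 deleted the megakaryocyte genes were split. The median over 18 genes was -0.24 against -0.09 over all genes, with 1 past 2-fold higher and 2 past 2-fold lower. Of all 6082 genes at that level, 180 were past 2-fold higher and 64 past 2-fold lower. Pf4 was at -0.21 (-0.29 to -0.13), Itga2b at -0.39 (-0.59 to -0.20) and Gata1 at -0.35 (-0.69 to -0.03). Gp9 was at -1.76 (-2.16 to -1.38) and Lat, an adaptor of platelet and T cell receptors, at -1.15 (-1.53 to -0.79), while Vwf was at 1.12 (0.76 to 1.49) and Plek at 0.99 (0.82 to 1.17).

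Granulocyte-monocyte genes were higher in both libraries, with 7 of 10 past 2-fold in the Mll3 deleted library (median 1.38) and 9 of 12 in the Mll4 deleted library (median 2.04). Over all genes at that level, 53 of 6074 and 180 of 6082 were past 2-fold higher. The list summed to 1375, 3304 and 5925 CPM. Without the other-lineage cells the medians were 0.03 over 6 genes and 0.54 over 8 genes. The rule for those cells counted Mpo, Elane and Ctsg of this list, so lower medians follow in part from the rule. Lymphoid genes were higher in the Mll3 deleted library, with 7 of 9 past 2-fold (53 of 6074 over all genes) and a median of 3.10. Without those cells the median was 1.06 over 4 genes. The rule for those cells also counted Cd79a, Vpreb1, Vpreb3, Igll1 and Ebf1 of this list. A lower median thus follows in part from the rule, and the genes covered differ. Cd79a, a B-cell receptor chain, was at 2.75 and 128 CPM in the control and Mll3 deleted libraries, Igll1 at 1.88 and 59.9, and Vpreb1 at 5.07 and 129. Cd79a was seen in only 13 of 167 Mll3 deleted cells. Over 7 alternatives the log2 ratio ran from 3.31 to 5.46 for Cd79a, 2.57 to 4.87 for Igll1 and 0.62 to 4.63 for Vpreb1. Ebf1, Bfsp2, Vpreb3, Dntt, Ctsg, Irf8 and Mpo were the other genes highest there.

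HSC list medians were 0.02 and 0.26 over 8 genes each, and the first fell below 0 with TMM scaling (-0.09). G2M medians were 0.34 and -0.10 and S phase medians 0.12 and -0.32, with no gene of either list past 2-fold in either library. Erythroid medians were -0.22 over 9 genes and -0.43 over 12.

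Among genes outside the lists, Tspan32, a tetraspanin of blood cells, was at 191, 44.5 and 46.3 CPM, low in both deleted libraries, with log2 ratios of -2.10 and -2.04 and at most 3.98% of its UMIs in 1 cell. Hemgn, a nuclear protein of blood progenitors, was low in the Mll3 deleted library, at 55.2, 20.4 and 59.5 CPM. The histone genes Hist1h3e, Hist1h3f, Hist1h3c, Hist1h2ab and Hist1h3b were also among the lowest there (log2 -1.49 to -1.27), with near-identical copies between which reads can be split. Jchain was at -5.67 and Igkc, an immunoglobulin gene outside the ranking, at -6.27, and 1 control cell held 98.0% and 98.9% of their control UMIs.

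In the library labelled Mll4 deleted, Tpm3-rs7, a tropomyosin-related sequence whose reads can be split with its parent gene, was at 105, 246 and 3.87 CPM (log2 -4.74). Bin1, a membrane-curvature adaptor, was at 66.4, 86.5 and 21.6 CPM, and Myl10 at 141, 84.2 and 55.5 CPM. Car1, Hist1h2ac, Cdkn2d, Gstp1 and Klk8 were also among the lowest genes. The highest were Cma1, a mast cell chymase with 0, 0 and 445 UMIs (the exact interval of its log2 ratio to control starts at 7.26), 47.4% of them in 1 cell, and Fcgr4, Itga1, F13a1, Cybb, Fcgr3, Slpi, Snhg9, Mpo and Mpeg1. Most of these genes are known from mast cells, macrophages or granulocyte precursors. The mast list summed to 52.5, 17.9 and 338 CPM with 5, 5 and 2 of 12 members at 0, the macrophage list to 24.8, 58.6 and 300 CPM with none of 10 at 0, and the neutrophil granule list to 21.4, 7.04 and 134 CPM with 2, 4 and 0 of 8 at 0. The part of such cells in single ratios was not tested beyond leaving them out, which took the number of genes past 2-fold from 66 to 40 in the Mll3 deleted library and from 178 to 129 in the Mll4 deleted library.

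**Figure D5:**
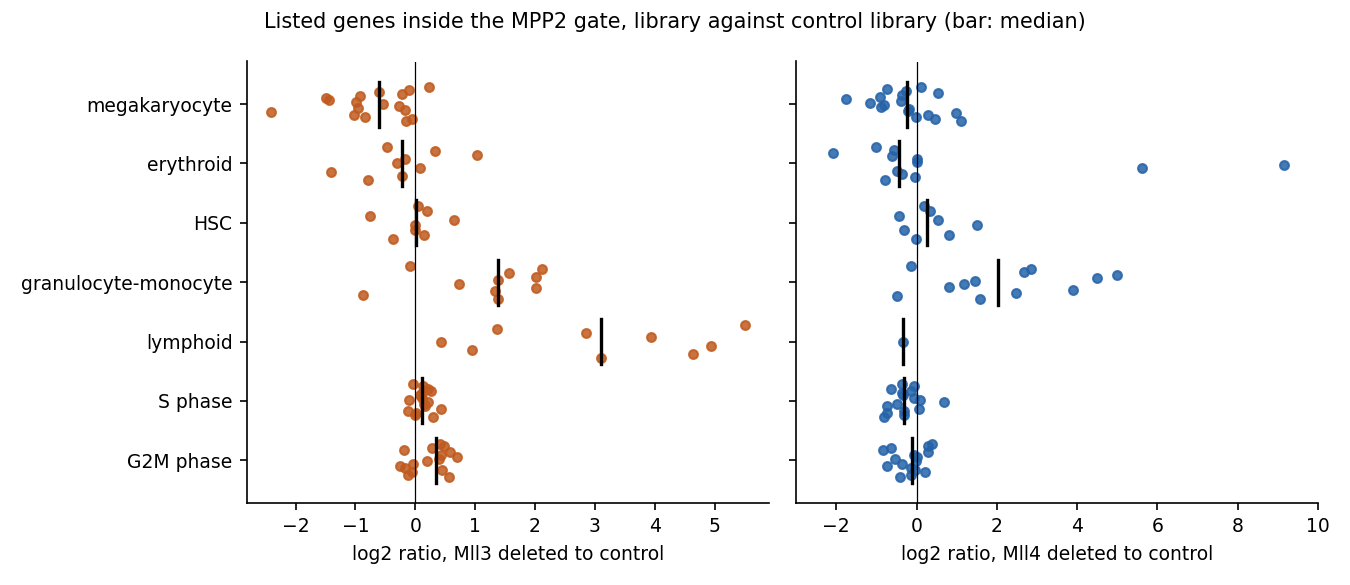
Log2 ratio to the control library of each list gene with a mean of at least 20 CPM, summed over MPP2 gate cells, for the Mll3 deleted (left) and Mll4 deleted (right) libraries, 1 point per gene with the list median as a bar. Megakaryocyte points lie mostly left of 0 in the Mll3 deleted library (median -0.61), and granulocyte-monocyte points lie mostly right of 0 in both (medians 1.38 and 2.04).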

How the data were processed

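Antibody tags and RNA were counted with Cell Ranger 6.1.1 against mm10, per the submitters' processing notes, and the values deposited by the authors are filtered matrices of raw UMI counts for 32285 genes and 6 antibodies. Doublet removal before deposit is not given in the sources used here. Members, gene lists and rules were chosen with earlier results of these data known. Kept barcodes had 1000 genes or more and no more than 10% mitochondrial UMIs. Doublet scores came from Scrublet in scanpy 1.11.5 and removed no cell from the values reported, except as an alternative.

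UMIs summed per library and gate (9 sums of 3 gates) were tested with edgeR 4.0.16 (R 4.3.3), a quasi-likelihood test with TMM scaling, library as a block, a minimum of 20 CPM in at least 3 sums and Benjamini-Hochberg adjustment over 6507 genes. The block is the shared library, from which the 3 gates of a genotype come. The test was tried on simulated counts with 200 changed genes. Ratios between libraries were log2 of (UMIs + 0.5) over the gate's total, with exact 95% intervals. List medians used genes averaging 20 CPM or more. Intervals and floors cover counting error only.

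Named genes were those of the lists, up to 15 genes higher than both gates in each library, the 8 highest and 8 lowest per gate contrast that passed with at least 50 CPM in 1 of both gates, and the 10 highest and 10 lowest ratios per deleted library with the same minimum. Mitochondrial, ribosomal protein, haemoglobin, immunoglobulin, sex-linked and unnamed genes were left out of these rankings. Alternatives covered DESeq2 1.42.0, scaling, filters, gate thresholds moved by 0.2, doublet scores, thinning and each library left out. Leaving out cells of other lineages was chosen after seeing the data. Gene positions are from GENCODE (99.8% of gene IDs matched) and promoters from RefSeq (GRCm38.p6). The library labelled Mll3/4 deleted is outside the gate rule. Some genes that these rules name are not reported here.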

Additional observations from a re-analysis of the deposited data

Results flagged for a closer look

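The same antibody thresholds applied to the library labelled Mll3/4 deleted, which entered no comparison, gave 84 cells (1.77% of kept cells) with a median of 6934 UMIs. Their lymphoid list summed to 15723 CPM, above the 124 CPM of the control gate, and this difference was not tested. Vpreb1, a surrogate light chain of B-cell precursors, stood at 3033 CPM, Cd79a at 2989 CPM and Ebf1, a B-lineage transcription factor, at 2006 CPM. Pf4 had 0 UMIs among 787973, which allows up to 4.68 CPM by the exact Poisson interval, and Itga2b had 8 UMIs and Gata1 4. The megakaryocyte list summed to 459 CPM and the HSC list to 626 CPM. Whether these cells are the same population as the MPP2 gate of the other libraries was not tested.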

How the results depend on the processing

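With 3 libraries, calls between gates depended on which library was left out, and the cause was not tested. Leaving out 1 library gave 10 to 1894 calls against the HSC gate and 9 to 326 against the MPP3 gate. Without the replicate block (library) 2 and 6 genes passed. Against HSC, fitting only the 2 gates compared gave 1382 calls and leaving other-lineage cells out of all 3 gates 1899. Against MPP3, DESeq2 gave 340, no low-count filter 382, the stricter cell filter 153, leaving other-lineage cells out of the MPP2 sums 173, and out of all 3 gates 630. Elane, a gene of the rule for those cells, turned to -0.72 and -0.38 against HSC under those removals. The library labels carry no replicate numbers.

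The share of cells in the gate was 3.78%, 2.21% and 2.39% with the highest doublet scores removed, 2.60%, 1.59% and 2.003% with thresholds moved by 0.2, 5.52% (control) and 3.26% (Mll3 deleted) with the stricter filter, and 4.93% (Mll3 deleted) with uncentred antibody counts. The share with Pf4 was 11.3% (control) and 7.97% (Mll4 deleted) at 1500 UMIs and 49.0%, 16.8% and 44.9% with no thinning.

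Among ratios to control, the granulocyte-monocyte median in the Mll3 deleted library was 1.599 with doublet scores removed, 1.76 with moved thresholds, 0.027 without other-lineage cells and 1.14 with equal weight per cell. In the Mll4 deleted library it was 1.18, 2.30, 0.54 and 1.30 in that order, 2.34 with the stricter filter, 2.47 at 5 CPM and 2.49 at 100 CPM. The HSC median was -0.091 with TMM and -0.0083 at 100 CPM in the Mll3 deleted library, and 0.46 with moved thresholds, 0.49 without other-lineage cells and 0.018 at 100 CPM in the Mll4 deleted library. At 100 CPM the Mll3 deleted megakaryocyte median was -0.18, and with the stricter filter the erythroid median was -0.42. Without other-lineage cells the lymphoid and G2M medians of the Mll3 deleted library were 1.06 and 0.17, and the S phase and G2M medians of the Mll4 deleted library -0.10 and 0.035. With equal weight per cell the lymphoid median of the Mll4 deleted library was 1.92, against -0.33 over 1 gene with summed UMIs, and Kmt2d in the Mll3 deleted library 0.014. Genes past 2-fold numbered 40 (Mll3 deleted) without other-lineage cells, and 140 and 327 at a minimum of 20 CPM.

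In the Mll3 deleted library Ighm, Igkc and Jchain turned to 2.03, 0.069 and 0.088 with doublet scores removed and to 1.92, 0.37 and 0.25 without other-lineage cells. Without those cells Ctsg, Elane and Ms4a3 turned to -0.0896, -1.22 and -1.82, and with moved thresholds Car1 turned to -3.61. Ctsg and Elane are genes of the rule that removed those cells.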

Other observations

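Several lists were measured in the gate and stand in no comparison above. Immediate early genes were lower than in the HSC gate for 2 of 8 tested, Egr1 and Ier2 (6.47% of all genes were lower). Egr1 was higher than in the MPP3 gate (0.968% of all genes were higher). Egr1, a transcription factor induced by growth signals, stood at 29.7, 75.6 and 48.7 CPM in the MPP2 gate and 51.3, 124 and 89.6 in the HSC gate (log2 -0.84, edgeR adjusted p = 0.00254). In the library labelled Mll3 deleted the list's median log2 ratio to control was 0.87 over 8 genes, with 3 past 2-fold higher. Over all 6074 genes at that level the median was 0.10 and 53 were past 2-fold higher.

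None of 6 H3K4 methyltransferase genes and none of 5 mature B and plasma cell genes differed from either gate by the edgeR test. Of all genes tested 12% differed from HSC and 1.52% from MPP3, so no call among so few genes is near those shares. Of T and innate lymphoid genes 1 of 10 was tested, Gata3, which was lower than in the HSC gate. Of stroma and endothelium genes 1 of 8 was tested and did not pass, and no eosinophil or macrophage gene passed the low-count filter. Surface CD117 (KIT), which the rule did not threshold, had a median clr of 0.97, 1.13 and 0.70 in the gate and CD34 of 0.04, 0.39 and -0.41.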
